A study of Mus musculus with 9 samples.

Results

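The Ehd genes, Ehd1, Ehd2, Ehd3 and Ehd4, encode the 4 Eps15 homology domain (EHD) proteins of the mouse. They were taken by symbol from a table of 24597 gene symbols measured in embryonic hearts, and all 4 were above the mean of 1 TPM (a transcript level corrected for gene length and library total) that 13682 tested genes reached. The study asked how a missense allele of Ctcf, CTCF-R567W, affects the developing heart. The CTCF protein binds DNA through zinc fingers and helps to fold chromatin, and the allele was made by CRISPR/Cas9 editing in C57BL/6N mice. RNA-seq libraries were prepared from hearts of E18.5 embryos, with 3 libraries each from wild-type (wt), heterozygous (heter, 1 edited allele) and homozygous (homo, both alleles edited) embryos. The labels give no other treatment, the embryos came from a mouse line that carries the allele, and each heart was collected in a tube of its own. The labels do not state litters, so the spread between the 3 libraries of a genotype is the error used throughout.

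EHD proteins are ATPases that assemble on membranes, bend them and cut tubules into vesicles. They act in the return of internalised receptors and channels from endosomes to the cell surface, and their carboxy-terminal EH domain binds partner proteins that carry short asparagine-proline-phenylalanine motifs. Ehd1 and Ehd3 act mainly at the tubular endocytic recycling compartment, Ehd4 acts at early endosomes, and Ehd2 sits at the necks of caveolae, the small surface pits that are abundant in endothelium and muscle. In heart muscle EHD proteins bind the ankyrin-B scaffold, and Ehd3 is known for its part in bringing ion channels and exchangers to the membrane.

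The coding sequences show how alike the members are and therefore how well short reads can be assigned among them. In GENCODE M21 (build GRCm38, the build mm10 of the files) Ehd1 lies on chromosome 19 from 6276725 to 6300096 on the plus strand, with 5 exons in its main transcript. Ehd2 lies on chromosome 7 from 15946958 to 15967567 on the minus strand, Ehd3 on chromosome 17 from 73804134 to 73832094 on the plus strand, and Ehd4 on chromosome 2 from 120089175 to 120154606 on the minus strand, each with 6 exons. No annotated gene overlapped any of them. Their coding sequences held between 1605 and 1632 bases. Ehd1 and Ehd3 were the most similar pair, with 80.0% of 1605 aligned bases identical, and the other 5 pairs ranged from 70.7% to 74.3%. The 90 coding bases that hold the longest run shared by Ehd1 and Ehd3 are shown here for all members. Reads of Ehd1 and Ehd3 are hardest to tell apart there. These 90 bases lie toward the 3′ end of the coding sequence, in the part for the EH domain. Capitals mark the 54 positions at which all 4 genes have the same base.
Ehd1: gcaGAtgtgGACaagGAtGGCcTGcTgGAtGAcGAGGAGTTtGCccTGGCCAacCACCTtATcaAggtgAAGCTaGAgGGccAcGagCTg
Ehd3: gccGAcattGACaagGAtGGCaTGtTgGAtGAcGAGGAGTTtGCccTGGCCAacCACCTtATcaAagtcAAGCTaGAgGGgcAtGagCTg
Ehd4: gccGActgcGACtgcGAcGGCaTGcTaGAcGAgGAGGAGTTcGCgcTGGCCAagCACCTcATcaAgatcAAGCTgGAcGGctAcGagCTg
Ehd2: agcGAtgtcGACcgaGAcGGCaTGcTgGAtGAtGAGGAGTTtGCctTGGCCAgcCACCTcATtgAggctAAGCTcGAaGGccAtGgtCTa

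Ehd3 differed from Ehd1 at 10 of these 90 bases, Ehd4 at 22 and Ehd2 at 23. The longest run shared by Ehd1 and Ehd3 was 40 bases, and their main transcripts had 10 words of 31 bases in common, while no other pair of members shared such a word. Against the transcripts of all genes, 0.301% of the 31-base words of Ehd1 occurred elsewhere, all of them in Ehd3. The share was 0.511% for Ehd2, with the words found in 416 other genes, and 0.553% for Ehd3, with the words found in 1405. Of the 3700 words of Ehd4, 0 occurred in another gene. RSEM, which made the estimates, divides reads that match several genes between them.

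The libraries stood apart in ways that touch the Ehd values. All 8 cardiomyocyte markers were measured in every group, with summed levels of 17534 to 20899 TPM in 8 libraries and 13389 TPM in homo replicate 3, whose fibroblast sum (8 markers) was also the lowest of the 9, at 856 TPM against 1101 to 1928 TPM. The same library held 803 TPM of 15 thymocyte markers, against 18.7 to 33.4 TPM elsewhere. Summed airway and lung markers (12 genes) reached 2622 TPM in wt replicate 1 and 1108 TPM in heter replicate 1, against 0.3 to 51.3 TPM in the others, and 15 liver markers reached 4142 TPM in heter replicate 1 against 30.6 to 171 TPM. The Ehd changes for homo against wt are also given without one or all of these 3 libraries. Xist was above 1 TPM in 1 wt, 3 heter and 1 homo library, so sex was not balanced over the genotypes. The median log2 change of all tested genes was 0.23 for homo against wt, 0.08 for homo against heter and 0.15 for heter against wt, and changes are also given relative to that median.

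The Ehd genes were not expressed evenly in the embryonic heart. Ehd4, the early endosome member, was the most abundant, at 116 ± 20.8 TPM (SD, n = 9 libraries), and 6.02% of the tested genes had a higher mean. Ehd1 followed at 59.2 ± 11 TPM and Ehd2 at 52.3 ± 10.8 TPM, with 12.1% and 13.7% of the tested genes above them. Ehd3 was detected at 1.58 ± 0.506 TPM, and 93.0% of the tested genes were above it. Ehd4 thus had the highest mean of the family, and Ehd3 was close to the lower limit of the tested genes. In whole hearts fewer cells of a type and less RNA per cell cannot be told apart, which holds for every level given here.

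This order held within the libraries. On the log2(TPM + 1) scale, where a value is a difference of levels within a library, Ehd4 was above Ehd1 by 0.96 ± 0.27 (SD) and above Ehd2 by 1.14 ± 0.25, in 9 of 9 libraries each. Ehd1 and Ehd2 were neighbours in this order, with a difference of 0.18 ± 0.18, and Ehd1 was the higher in 8 of 9 libraries. The exception was wt replicate 3, where Ehd2 reached 66.7 TPM and Ehd1 63.8 TPM. Both were above Ehd3 in every library, by 4.54 ± 0.25 and 4.36 ± 0.30. In an exact two-sided sign-flip permutation test over the 9 libraries, with Benjamini-Hochberg adjustment over the 6 pairs, the difference between Ehd1 and Ehd2 had an adjusted p of 0.0156 and the other 5 pairs an adjusted p of 0.00469, from an unadjusted p of 0.00391, the smallest that 9 libraries can give. Libraries of the 3 genotypes enter this test together.

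**Figure D1:**
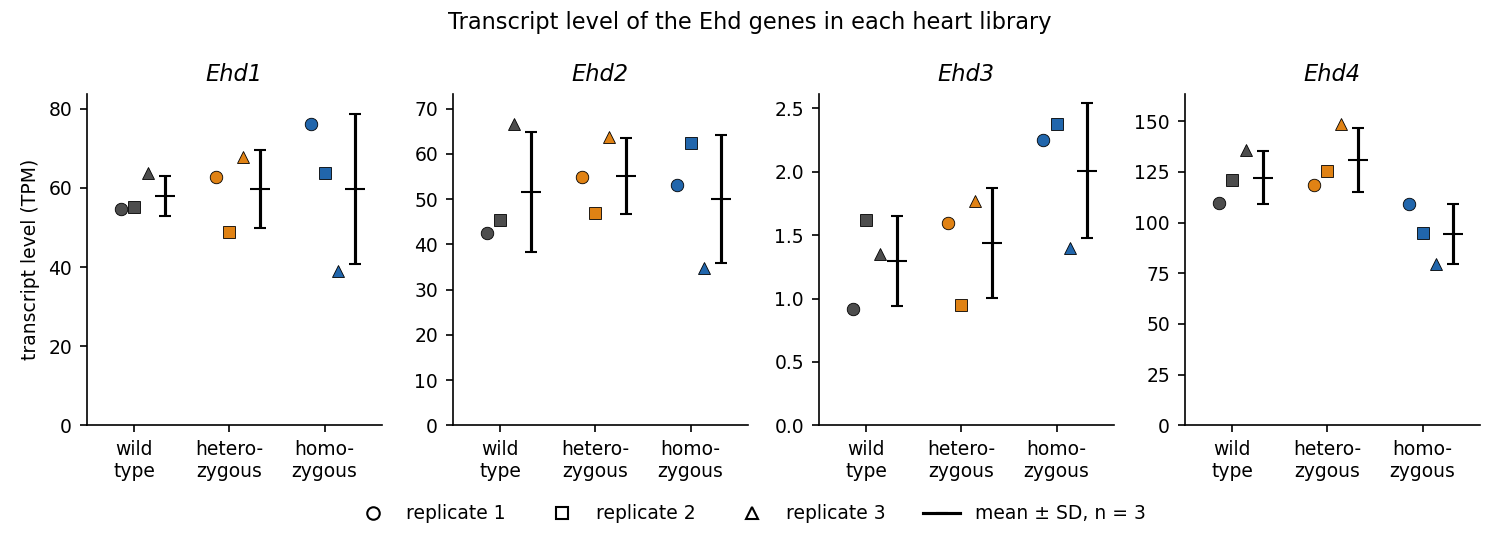
Transcript level (TPM, vertical axis from 0, a scale of its own for each gene) of the Ehd genes in the 9 heart libraries by genotype, with 1 symbol per replicate number and the mean ± SD of 3 libraries beside them. The 3 homo libraries lie below all other libraries for Ehd4, and homo replicate 3 is the lowest of the 9 libraries for Ehd1, Ehd2 and Ehd4.

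Among the recycling compartment members, Ehd1 was level across the genotypes in its mean and scattered most in the homo hearts. It was measured at 54.7, 55.3 and 63.8 TPM in the wt libraries, at 62.8, 48.9 and 67.9 TPM in the heter libraries, and at 76.3, 63.8 and 39.1 TPM in the homo libraries. The highest and the lowest of the 9 values were both from homo hearts, and the groups overlapped in each comparison. Means were 57.9 ± 5.12, 59.8 ± 9.86 and 59.7 ± 18.9 TPM (SD, n = 3). The log2 change was -0.01 for homo against wt (95% interval -0.49 to 0.48, adjusted p = 0.989, limma with Benjamini-Hochberg adjustment over all tested genes). It was -0.04 for homo against heter (-0.53 to 0.44, adjusted p = 0.976) and 0.04 for heter against wt (-0.45 to 0.52, adjusted p = 0.960), again by limma. Without homo replicate 3 the log2 change for homo against wt was 0.27 (adjusted p = 0.240, limma), and without wt replicate 3 it was 0.06 (adjusted p = 0.869, limma), so its sign turned when either library was left out. Relative to the median of all genes the change for homo against wt was -0.24, and 17.6% of the tested genes had a lower change. With median-ratio scaling of the libraries it was -0.26 (adjusted p = 0.461, limma).

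Ehd3, the member tied to channel delivery in heart muscle, was low in each genotype. Its levels were 0.920, 1.62 and 1.35 TPM in wt, 1.60, 0.950 and 1.77 TPM in heter, and 2.25, 2.38 and 1.40 TPM in homo hearts. The highest 2 of the 9 values were from homo libraries, but homo replicate 3 lay within the range of the other genotypes. Means were 1.30 ± 0.353, 1.44 ± 0.433 and 2.01 ± 0.532 TPM (SD, n = 3), and the log2 change for homo against wt was 0.39 (95% interval -0.17 to 0.94, adjusted p = 0.336, limma). The other comparisons gave 0.30 (-0.25 to 0.86, adjusted p = 0.809, limma) for homo against heter, which ranged from 0.15 (without heter replicate 2) to 0.46 (without homo replicate 3) when 1 library was left out, and 0.08 (-0.47 to 0.64, adjusted p = 0.910, limma) for heter against wt. Relative to the median of all genes the first was 0.15, at a place with 73.2% of the tested genes below it. Leaving out homo replicate 3 gave an Ehd3 change of 0.54 for homo against wt (adjusted p = 0.129, limma). Leaving out wt replicate 1 gave 0.26 (adjusted p = 0.640, limma). Without wt replicate 1, heter replicate 1 and homo replicate 3 the log2 change of Ehd3 was 0.42 for homo against wt (adjusted p = 0.323, limma) and 0.51 for homo against heter (adjusted p = 0.556, limma). The table gives no read number, so the counting error at this level is unknown.

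Ehd2, the caveolar member, was measured at 42.5, 45.4 and 66.7 TPM in wt, at 54.8, 47.0 and 63.8 TPM in heter, and at 53.2, 62.4 and 34.7 TPM in homo libraries. The highest value came from a wt heart and the lowest from homo replicate 3, and all groups overlapped. The log2 change was -0.05 for homo against wt (95% interval -0.56 to 0.46, adjusted p = 0.896, limma), with means of 51.5 ± 13.2 and 50.1 ± 14.1 TPM (SD, n = 3). The heter mean was 55.2 ± 8.42 TPM, with log2 changes of -0.17 (-0.68 to 0.34, adjusted p = 0.896, limma) for homo against heter and 0.11 (-0.40 to 0.62, adjusted p = 0.857, limma) for heter against wt. Without homo replicate 3 the change for homo against wt was 0.19 (adjusted p = 0.519, limma), and without wt replicate 3 it was 0.14 (adjusted p = 0.660, limma), so here too the sign turned without either of them. Relative to the median of all genes the Ehd2 change for homo against wt was -0.28, and 14.0% of the tested genes had a lower change. With median-ratio scaling it was -0.30 (adjusted p = 0.357, limma).

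Ehd4, the early endosome member, was the one whose homo libraries stood below the rest. It was measured at 109.46, 121 and 136 TPM in wt, at 119, 125 and 149 TPM in heter, and at 109.18, 94.6 and 79.4 TPM in homo hearts. All 3 homo values lay below all 6 others, although homo replicate 1 and wt replicate 1 were almost level. The means were 122 ± 13.1 TPM in wt, 131 ± 15.8 TPM in heter and 94.4 ± 14.9 TPM in homo hearts (SD, n = 3), so that the homo mean differed by -22.7% from wt and by -27.9% from heter. The study had picked out Ehd4 from these same libraries, and its direction here is no independent evidence.

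For Ehd4 the log2 change was -0.37 for homo against wt (SE 0.14, 95% interval -0.69 to -0.06, unadjusted p = 0.0246, adjusted p = 0.154, limma), and -0.61 relative to the median of all genes. Only 3.82% of the tested genes had a lower change. For homo against heter it was -0.47 (SE 0.14, -0.79 to -0.16, unadjusted p = 0.00731, adjusted p = 0.563, limma), and -0.55 relative to the median. For heter against wt it was 0.10 (-0.22 to 0.41, adjusted p = 0.800, limma), with overlapping groups. This last value was 0.00471 without heter replicate 3, 0.0241 without wt replicate 1, 0.17 without heter replicate 1 and 0.18 without wt replicate 3, and 0.0914 without the 3 libraries that stood apart. The first comparison misses the threshold after adjustment over all genes, as does the second, and the 2 share the homo libraries.

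Of the 4 Ehd genes, 0 were called for homo against wt at an adjusted p under 0.05 (limma), against 0.336% of all tested genes, and 1 had an unadjusted p under 0.05, against 25.0% of all. Groups that did not overlap with homo lower were found for 1 of the 4, against 2.38% of all genes. For homo against heter 0 of 4 were called (0.0439% of all genes), 1 had an unadjusted p under 0.05 (7.15% of all) and 1 lay lower without overlap (3.85% of all). For heter against wt 0 of 4 were called (0.0146% of all genes), 0 had an unadjusted p under 0.05 (6.87% of all) and 0 lay apart (13.8% of all). With so few members these counts are a description of single genes.

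**Figure D2:**
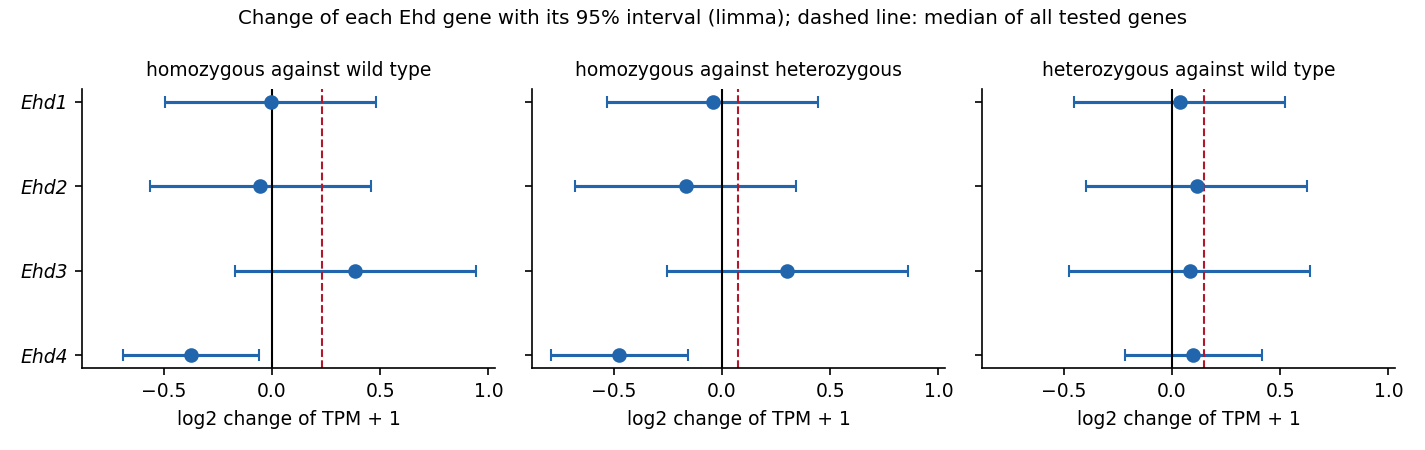
Log2 change of TPM + 1 (horizontal axis) of each Ehd gene in the 3 comparisons, with points for the limma estimate, bars for its unadjusted 95% interval, a solid line at 0 and a dashed line at the median of all tested genes. The interval of Ehd4 lies below 0 for homo against wt (-0.69 to -0.06) and homo against heter (-0.79 to -0.16), and the other 10 intervals include 0.

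**Figure D3:**
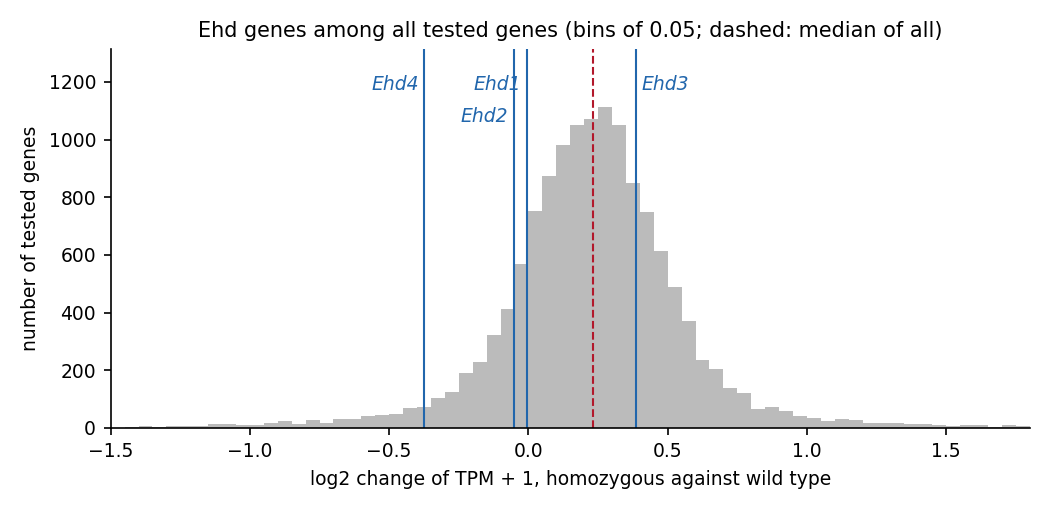
Number of tested genes (vertical axis) by log2 change of TPM + 1, homo against wt (horizontal axis, bins of 0.05, range limited to -1.5 to 1.8), with solid lines at the Ehd genes and a dashed line at the median of all genes, 0.23. Ehd4 at -0.37 is in the lower tail, Ehd2 at -0.05 and Ehd1 at -0.01 are left of the median, and Ehd3 at 0.39 is right of it.

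The Ehd4 result was read against what else moved. Scaling the libraries by the median ratio of their genes, with factors from 0.841 to 1.15, brought Ehd4 to 130, 140 and 131 TPM in wt, 116, 130 and 138 TPM in heter, and 98.0, 82.5 and 79.6 TPM in homo libraries, which widened the gap between homo and the rest. On that scale the log2 change for homo against wt was -0.62 with an adjusted p of 0.0219 (limma), the only alternative in which Ehd4 was called. Without homo replicate 3 the change on the unscaled values was -0.26 (adjusted p = 0.196), and without wt replicate 1, heter replicate 1 and homo replicate 3 it was -0.33 (adjusted p = 0.252, limma), or -0.42 for homo against heter (adjusted p = 0.513, limma). Summed smooth muscle markers (7 genes, 0 at 0 in all libraries) also lay lower in the homo hearts, at 579, 382 and 444 TPM against 626 to 751 TPM in wt and 527 to 749 TPM in heter. Of these 7 genes, 0 were called, 5 had a log2 change below 0 for homo against wt, and 2 lay lower without overlap. Against heter, 7 of the 7 had a log2 change below 0. Erythroid markers (8 genes, 7 tested, 0 at 0 in all libraries) summed to 4306 to 5148 TPM in homo, 2853 to 14604 TPM in wt and 5114 to 15546 TPM in heter libraries. Of the 7 tested, 0 were called and 7 had a log2 change below 0 in homo hearts, with a median of -0.68 against wt and of -0.88 against heter, where 2 lay lower without overlap. Of the 8 cardiomyocyte markers 0 were called, 4 had a log2 change below 0 against wt and 7 against heter, where 2 lay lower without overlap. Of the 14 thymocyte markers tested, 0 were called and 14 had a log2 change above 0 in homo hearts against wt. The sum of the 15 listed was 28.8, 33.4 and 803 TPM in the homo libraries. Among all tested genes, 17.6% had a change for homo against wt below that of Ehd1 (-0.01), and 2.38% lay lower without overlap. For homo against heter, 26.6% were below Ehd1 (-0.04) and 3.85% lay lower without overlap. The part of these cell types in the Ehd4 values was not tested. As 1 wt and 1 homo library had Xist above 1 TPM, a sex term could not move the change for homo against wt, and for homo against heter that term gave -0.44 for Ehd4 (adjusted p = 1, limma).

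The makeup of the family was compared as the share of each gene in the summed Ehd level, which does not depend on library scaling. The sum itself was 207.56, 224 and 267 TPM in wt, 238, 222 and 282 TPM in heter, and 241, 223 and 155 TPM in homo libraries, with homo replicate 3 the lowest of the 9. Ehd4 made up 52.7%, 54.2% and 50.7% of it in wt, 49.9%, 56.5% and 52.7% in heter, and 45.3%, 42.4% and 51.4% in homo libraries, so that homo replicate 3 fell within the range of the other genotypes. Ehd3 made up 0.443%, 0.725% and 0.505% in wt, 0.673%, 0.427% and 0.627% in heter, and 0.934%, 1.07% and 0.906% in homo libraries. For Ehd3 all 3 homo shares were above the other 6.

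The mean share of Ehd3 was 0.969% in homo against 0.558% in wt and 0.576% in heter hearts (exact two-sided permutation p = 0.1 in each comparison, the smallest that 3 against 3 libraries can give, adjusted p = 0.5 over 15 tests). The mean share of Ehd4 was 46.4% in homo against 52.6% in wt (exact permutation p = 0.2, adjusted p = 0.5). Within a library the ratio of Ehd4 to Ehd3 was 74.8 to 119 in wt, 74.1 to 132 in heter and 39.8 to 56.7 in homo libraries, so that homo lay apart. The ratio of Ehd1 to Ehd3 was 34.1 to 59.4 in wt, 38.4 to 51.4 in heter and 26.8 to 33.9 in homo libraries. Here homo also lay lower without overlap, but homo replicate 1 (33.9) and wt replicate 2 (34.1) were almost level. By contrast, the ratio of Ehd4 to Ehd1 was 1.43, 1.48 and 2.03 in homo against 2.002 to 2.192 in wt. Homo replicate 3 thus kept a wt-like ratio of Ehd4 to Ehd1 at low levels of both. The share of Ehd3 and both ratios to Ehd3 reuse the same Ehd3 values, which were 0.920 to 2.38 TPM with an unknown counting error. Those values overlapped between the groups, and 22.3% of all tested genes lay higher without overlap in homo against wt.

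**Figure D4:**
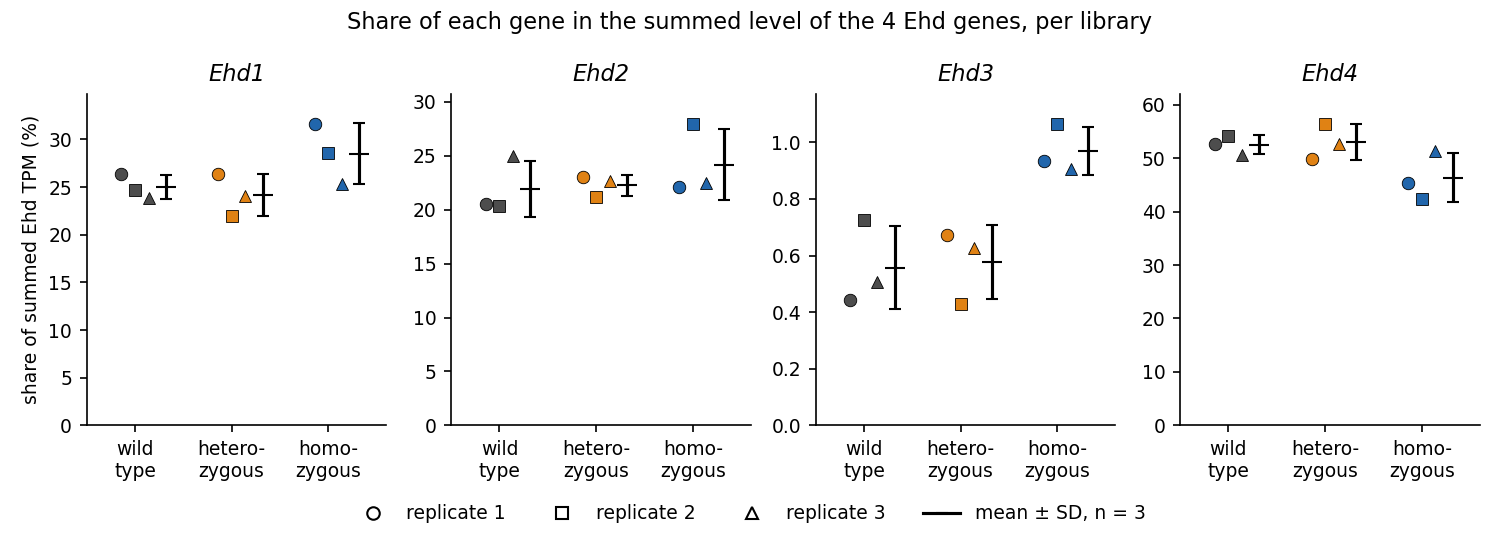
Share of each Ehd gene in the summed TPM of the 4 genes (percent, vertical axis from 0, a scale of its own for each gene) in the 9 libraries by genotype, with 1 symbol per replicate number and the mean ± SD of 3 libraries. The Ehd3 shares of the homo libraries (0.906% to 1.07%) lie above all others (0.427% to 0.725%), and the Ehd4 shares of 2 homo libraries (42.4% and 45.3%) lie below all others.

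For each member, the 3 genes with the most similar values over the 9 libraries were sought among 9952 genes whose mean reached 5 TPM, by the root-mean-square (RMS) difference of log2(TPM + 1) centred on each gene's mean. Ehd4 was closest to Adprhl1, which encodes an ADP-ribosylhydrolase-like protein of heart muscle (RMS difference 0.0560, 194 ± 16.4 TPM in wt, 201 ± 16.5 in heter and 149 ± 17.4 in homo hearts), then to Inpp5a, an inositol phosphatase gene (0.0566), and Tgm2, a transglutaminase gene (0.0782). Ehd2 was closest to Kdr, the gene of an endothelial receptor for vascular endothelial growth factor (0.0649), then Lrrn2 and Angptl2. Ehd1 was closest to Ckap4 (0.0736), Olfml2b and Synpo, and Ehd3 to Rnf144a (0.0854), Gm14410 and Cdk14. Each of these is a likeness over 9 values that share their libraries.

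The members were not each other's nearest neighbours by this measure. Ehd2 was in place 545 among the genes nearest to Ehd1, and Ehd1 in place 568 for Ehd2, while Ehd4 was in place 8986 for Ehd3. Set beside the summed cell type markers, Ehd4 was closest to cardiomyocyte markers (RMS difference 0.155) and then smooth muscle (0.190). Ehd2 was closest to cardiomyocyte markers (0.178), then fibroblast (0.199) and endothelial markers (0.208). Ehd1 was closest to fibroblast (0.136) and then cardiomyocyte markers (0.165), and Ehd3 to endothelial (0.167) and then macrophage markers (0.257). Homo replicate 3 was the lowest of the 9 libraries for Ehd1, Ehd2, Ehd4 and the cardiomyocyte and fibroblast sums. The endothelial sum (10 genes) was 422 to 577 TPM in wt, 527 to 632 TPM in heter and 513 to 709 TPM in homo libraries. These sums do not say which cells express the genes.

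The other genes of the pathway were taken from 5 lists. For homo against wt 0 genes of any list were called (limma), against 0.336% of all tested genes. EHD partners, the proteins that EHD proteins bind, had 15 of 16 genes tested, and their median log2 change was 0.13, which is -0.10 relative to the median of all genes. In that list Ehbp1l1, an EHD binding protein gene, had the lowest log2 change among genes of at least 5 TPM, at -0.06 (72.2 ± 9.27 TPM in wt, 69.0 ± 5.26 TPM in homo hearts, SD, n = 3). Snap29, a gene for a fusion protein of the SNARE type, had the highest, at 0.39 (9.71 ± 1.88 and 13.0 ± 1.85 TPM, adjusted p = 0.166, limma). The groups overlapped for both.

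Of the recycling Rab GTPases and their effectors, 24 of 26 genes were tested, and the median of their log2 changes for homo against wt was 0.21 (-0.02 relative to the all-gene median). Rab22a, an endosomal Rab, was measured at 15.4, 16.3 and 16.4 TPM in wt, 18.4, 20.4 and 21.1 TPM in heter, and 13.4, 12.7 and 12.0 TPM in homo libraries. Its homo libraries lay below all others, with a log2 change of -0.31 against wt (adjusted p = 0.142, limma). Myo5b, a myosin motor of recycling endosomes, had the highest change of this list, at 0.44 (4.07 ± 1.09 TPM in wt, 5.89 ± 1.53 TPM in homo hearts), and its groups overlapped.

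Caveolar coat genes, which work beside Ehd2, were all tested (7 of 7), and the median of their log2 changes was 0.08 (-0.15 relative to the all-gene median), and 1 of 7 was above the median of all genes. Cavin4, the muscle cavin, was measured at 31.6, 32.0 and 32.7 TPM in wt, 34.7, 36.6 and 35.7 TPM in heter, and 30.4, 23.7 and 21.9 TPM in homo libraries. All homo values were below the rest, and the log2 change against wt was -0.35 (adjusted p = 0.150, limma). Cavin3 had the highest log2 change of this list, 0.33 (36.6 ± 3.89 and 46.8 ± 9.81 TPM), with overlapping groups.

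All 20 clathrin endocytosis genes were tested, and the median of their log2 changes was 0.16 (-0.07 relative to the all-gene median). Dnm1, a dynamin gene, was lowest at -0.47 with overlapping groups (6.02 ± 2.10 TPM in wt, 3.92 ± 0.360 TPM in homo hearts), and Itsn2, an endocytic scaffold gene, was highest at 0.47, with all homo libraries above wt (9.57 ± 2.15 and 13.5 ± 0.762 TPM, adjusted p = 0.130, limma). Of the membrane proteins of heart muscle that endosomal recycling and ankyrin-B serve, all 14 genes were tested, with a median of 0.15 (-0.08 relative to all genes). Kcnq1, a potassium channel gene, was lowest at -0.13.

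For homo against heter the 5 lists again held 0 called genes (0.0439% of all), with medians between -0.15 and 0.01 relative to all genes, and for heter against wt 0 called genes (0.0146% of all), with medians between -0.02 and 0.12. The 80 tested genes of the lists thus gave 0 calls in all 3 comparisons under equal weights for the 9 libraries and no rescaling, while 10 of them had an unadjusted p under 0.05 for homo against wt, against 25.0% of all genes.

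**Figure D5:**
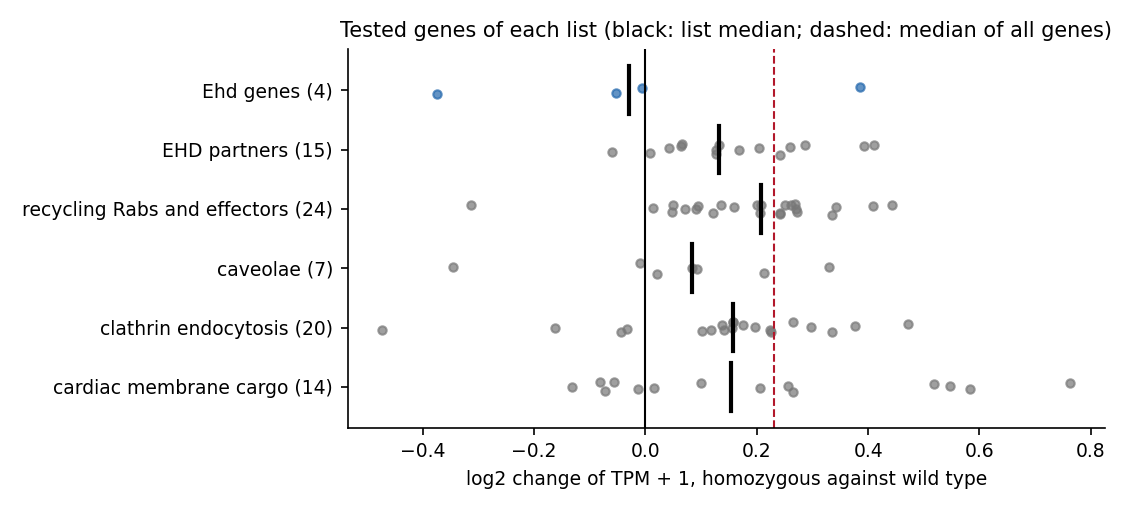
Log2 change of TPM + 1, homo against wt (horizontal axis), of the tested genes of each list, with 1 dot per gene, a black bar at the list median, a solid line at 0 and a dashed line at the median of all tested genes; vertical jitter carries no value, and the number of tested genes follows each list's name. The medians of the 5 pathway lists lie between 0.08 and 0.21, all left of the dashed line at 0.23, and Ehd4 at -0.37 is lower than all but 1 of the pathway genes, Dnm1.

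The promoter of Ehd4, the member that stood apart, is shown for reference, from 250 bases before to 50 bases after the transcript start, as given by RefSeq for GRCm38.p6. The RefSeq table held such windows for 3 members, Ehd2, Ehd3 and Ehd4. A short promoter motif, the letters CCAAT, was searched on both strands, and capitals mark its matches (read in reverse complement where the match is on the opposite strand).
Ehd4, chr2:120154526-120154825, minus strand: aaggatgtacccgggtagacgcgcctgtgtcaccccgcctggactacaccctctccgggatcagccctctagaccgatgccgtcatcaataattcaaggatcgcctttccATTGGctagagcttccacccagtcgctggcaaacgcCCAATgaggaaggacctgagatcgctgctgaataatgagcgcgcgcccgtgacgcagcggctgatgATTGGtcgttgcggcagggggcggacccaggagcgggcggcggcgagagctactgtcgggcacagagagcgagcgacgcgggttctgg

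The Ehd4 window held 3 matches to it, beginning at positions -140, -104 and -38 relative to the transcript start, and the windows of Ehd2 and Ehd3 held 1 and 0. The Ehd3 window, from 73804591 to 73804890, lies inside the GENCODE gene, which begins at 73804134. Its matches therefore belong to the RefSeq start only. Of 32851 windows of this length, 37.4% held at least 1 match. The GC box, the letters GGGCGG, was present in 35.7% of the windows and occurred 2 times each for Ehd4 and Ehd2 and 1 time for Ehd3. The share of windows with several matches was not counted for either motif. A match is a run of letters, and no binding was measured here.

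The genes beside the members on their chromosomes were also read. The nearest tested genes by transcript start were Pla2g4b and Pla2g4e for Ehd4, both phospholipase genes, 121189 and 90729 bases from its start. Pla2g4b was at 1.95 ± 0.779 TPM in wt, 3.67 ± 0.564 in heter and 4.45 ± 1.198 in homo hearts, with a log2 change for homo against wt of 0.89 (adjusted p = 0.108, limma), and both edited genotypes lay above wt without overlap. Pla2g4e was at 2.39 ± 0.531, 3.03 ± 0.380 and 4.89 ± 1.01 TPM, which gave 0.79 on the log2 scale for homo against wt (adjusted p = 0.0983, limma), and its homo libraries lay above both other genotypes. Higher values without overlap were found for 22.3% of all tested genes in homo against wt. Ehd4 thus had lower values between 2 low-level neighbours with higher ones, and none of the 3 passed the test.

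The neighbours of the other members gave the following values for homo against wt. Beside Ehd1, Atg2a, an autophagy gene, had a log2 change of 0.36 and Cdc42bpg, a kinase gene, 0.28, each without overlap (adjusted p = 0.196 and 0.247, limma). Beside Ehd2, the values were 0.07 for Gltscr2 (now Nop53, adjusted p = 0.779) and 0.51 for Gltscr1 (now Bicra, adjusted p = 0.116, limma), the latter without overlap. Beside Ehd3, they were -0.33 for Lclat1 and 0.01 for Xdh (adjusted p = 0.233 and 0.981, limma), with overlapping groups. Of the 8 neighbours, 0 were called.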

How the data were processed

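Messenger RNA of each heart was captured on beads and sequenced. The authors trimmed reads (Trim Galore), aligned them to mm10 (STAR) and quantified genes (RSEM), per the submitters' processing notes; the annotation release and use of strand are not given in the sources used here. The deposited values are TPM per gene and library, which the authors scaled by gene length and library total. They sum to 999100 to 999245 per library. TPM keeps no depth, so counting error is unknown, and no count test was run.

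Of 24597 symbols, 26 turned into dates were left out (at most 0.0921% of a library's TPM). Libraries were grouped by their titles. Values were tested as log2(TPM + 1), which understates changes of low genes, for the 13682 genes whose mean reached 1 TPM, with limma 3.58.1 (trend) in R 4.3.3 on all 9 libraries without covariates, two-sided, with Benjamini-Hochberg adjustment within a comparison and calls under 0.05. The scripts were tested on simulated data. The caveolar Cavin genes were matched by older symbols through RefSeq. The members, lists and rules were chosen with earlier results of these data known. The genes named beside the members were, for each list, those called or else the highest and lowest change where the mean reached 5 TPM, the 3 most alike to each member, and the nearest tested neighbours. A result that this rule names is not reported here. Alternatives were another pseudocount, filter, scaling, variance model, sample set, a sex term and a replicate block.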

Additional observations from a re-analysis of the deposited data

How the results depend on the processing

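Over 24 alternatives, Ehd4 was below 0 in every one for homo against wt (-0.62 to -0.23, adjusted p 0.0219 to 0.411) and for homo against heter (-0.58 to -0.34, adjusted p 0.112 to 1), and the order of the Ehd levels kept its direction and its side of the threshold in the alternatives run for it. Many of the 24 could not turn the Ehd4 sign. Other filters or eBayes settings, the replicate block, fitting only the groups compared, and leaving out a library of the third genotype returned the main change. For homo against wt the sex term did so too. Median-ratio scaling called 1 Ehd gene for homo against wt, Ehd4 (log2 change -0.62, adjusted p = 0.0219, limma); this scaling removes the shift of all genes by construction, and relative to that shift Ehd4 ranged from -0.69 to -0.48. Relative to the median of all genes, Ehd1 was below 0 in 23 and Ehd2 in 24 of the 24 alternatives for homo against wt, and the same limit holds for these counts. Signs of the changes themselves turned, with 0 calls, for changes near 0. For homo against wt, Ehd1 was 0.29 and Ehd2 0.22 with arrayWeights, and 0.23 and 0.0647 without wt replicate 1, heter replicate 1 and homo replicate 3, a set chosen after seeing the data. Leaving out 1 library at a time gave -0.21 to 0.27 for Ehd1 and -0.23 to 0.19 for Ehd2, above 0 without homo replicate 3 or wt replicate 3. For homo against heter, Ehd1 was 0.19 with arrayWeights, 0.27 without the 3 libraries and 0.12 with Xist as a covariate, and Ehd2 0.0722 without the 3 libraries; leaving out 1 library gave -0.24 to 0.23 and -0.34 to 0.0720. For heter against wt, median-ratio scaling gave -0.13, -0.0491, -0.0150 and -0.0662 for Ehd1 to Ehd4 in order, quantile normalization -0.0706, -0.00556 and -0.0424 for Ehd1 to Ehd3, and both sets without wt replicate 1 and heter replicate 1 -0.0441, -0.00752 and -0.0944. Ehd1 was -0.00185 when rescaled without mitochondrial and haemoglobin genes and -0.12 with Xist as a covariate. Leaving out 1 library gave -0.0599 to 0.17, -0.00726 to 0.31 and -0.0405 to 0.24. The causes were not tested.

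Libraries of the same replicate number were not treated as pairs in the main fit, and the values do not settle whether they belong together. Correlations of their deviations were 0.359, 0.062 and 0.297 between wt and heter for replicates 1, 2 and 3. Those with a homo library were -0.031 to 0.065. The value of 0.359 is between the libraries with high airway and lung markers. The best match had the same number in 10 of 18 cases, each chosen among the 3 libraries of another genotype. With the replicate block the calls among all genes were 17 in place of 46 for homo against wt, 1 in place of 6 for homo against heter and 1 in place of 2 for heter against wt, and the Ehd4 change of -0.37 had an adjusted p of 0.214 (limma). The block changed no Ehd call. The count of 46 ranged from 8 (without wt replicate 1 and heter replicate 1) to 5068 (arrayWeights), with 240 under median-ratio scaling, 247 without homo replicate 3 and 2170 without wt replicate 3. The count of 6 ranged from 0 to 43 and that of 2 from 0 to 6. In the lists, arrayWeights called 4, 9, 2, 3 and 5 genes in the order of the text for homo against wt, and the fit without wt replicate 3 called 1, 2, 0, 2 and 3. Median-ratio scaling called 1 recycling Rab and 1 caveolar gene, and quantile normalization 1 recycling Rab gene. For homo against heter arrayWeights and quantile normalization each called 1 recycling Rab gene. The filter at 5 TPM leaves out Ehd3, which has no value there. With 3 libraries a genotype and no read number, a log2 change of Ehd1 or Ehd2 as large as the intervals given could not be told from 0.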
